A study of Homo sapiens with 6 samples.

Results

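A set of 9 acute phase and complement genes was followed in PC9 cells and in the persister cells derived from them. They were the serum amyloid A genes SAA1, SAA2 and SAA4, the acute phase genes ORM1, HP and LCN2, the complement genes C3 and CFB, and the complement inhibitor gene CD55. The genes were listed by symbol with earlier results of the same comparison in view, so their levels are given as a description and without a test. All 9 were among the 36459 gene symbols of the count table, and 6 of them were among the 14626 genes with enough counts to be tested. SAA4, ORM1 and HP were not.

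PC9 is a line of human non-small cell lung cancer whose growth depends on signalling through the receptor kinase EGFR. The PC9 group held 3 libraries of parental cells. The PSPC9 group held 3 libraries of the cells left after treatment for 6 days with erlotinib, which inhibits the EGFR kinase, at 15 µM, and these libraries were pooled from 9 cultures, whereas the PC9 libraries came from 3 cultures. Both groups are the same cell line, and no second line was among the samples used here. The labels do not say whether the untreated PC9 cultures were of the same age as the PSPC9 cultures.

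Acute phase proteins are secreted in large amounts by the liver, and by epithelia at sites of infection or injury, when interleukin-6, interleukin-1 and tumour necrosis factor act through STAT3, C/EBP and NF-kappa B factors. Complement is a cascade of plasma proteins that marks surfaces for removal. C3 is the protein on which its pathways meet, factor B (CFB) joins cleaved C3 to form the C3-cleaving enzyme of the alternative pathway, and CD55 on the cell surface speeds the decay of such enzymes. Lung epithelium makes C3, factor B and lipocalin-2 (LCN2) itself.

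Libraries held between 29476725 and 34893782 estimated counts, and levels are counts per 1000000 counts (CPM) of the library total scaled by the trimmed mean of M-values (TMM). A total of 3 counts, taken here as the limit of detection in a library, corresponded to 0.0872 to 0.103 CPM. Of the genes tested, 28.7% were called higher and 28.1% lower in PSPC9 at an adjusted p under 0.01 (56.8% in all), and the 3 libraries of one group lay wholly outside those of the other in 71.3%. The epithelial genes KRT8, KRT18 and EPCAM were abundant in both groups, whereas the lung lineage factor NKX2-1 had at most 1 count in any library and NAPSA, an alveolar protease, at most 11.

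SAA1 and SAA2 had few counts in PC9 and more in every PSPC9 library, LCN2, C3 and CFB were lower in every PSPC9 library, and CD55 was higher. For all 6 the groups did not overlap. Since the genes were chosen on this comparison, and 71.3% of all tested genes also had groups that did not overlap, nothing is read from that count. In bulk RNA, fewer cells with a transcript and less of it per cell cannot be told apart.

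**Figure D1:**
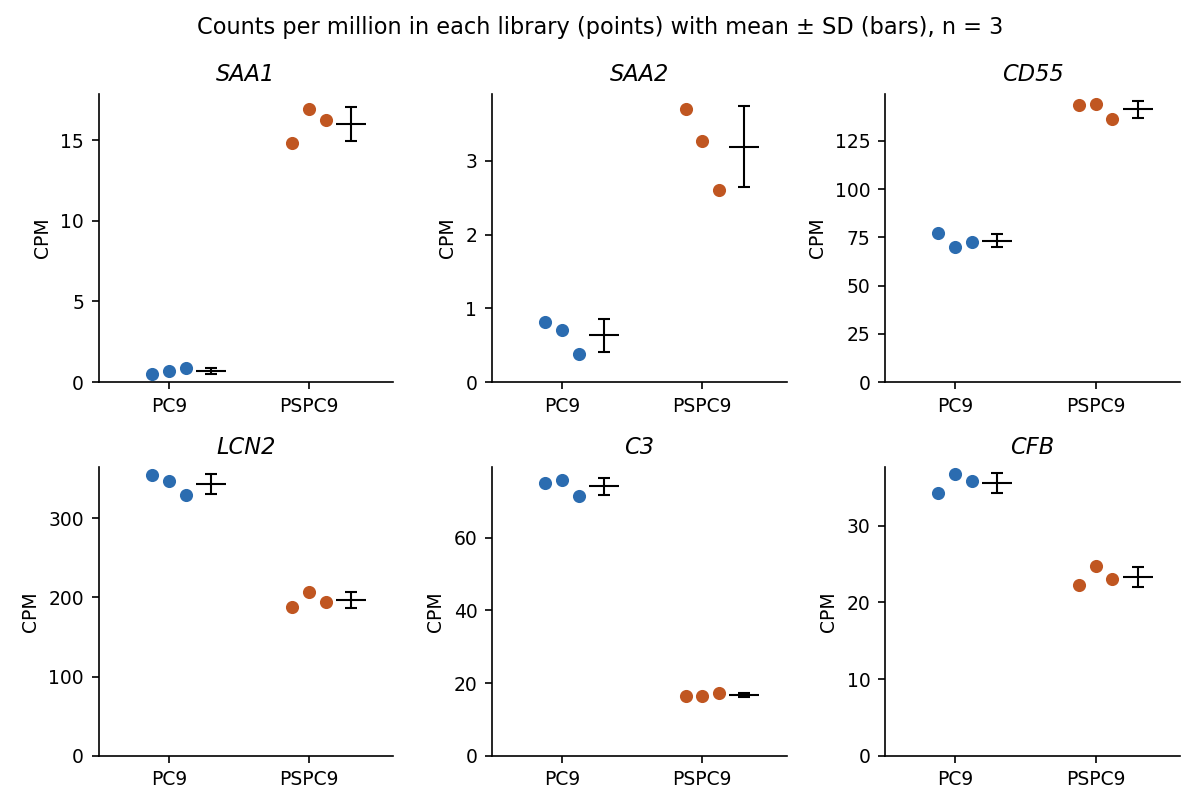
CPM of SAA1, SAA2, CD55, LCN2, C3 and CFB in each of the 3 PC9 and 3 PSPC9 libraries (points), with mean and SD (bars), each panel on its own linear axis from 0. The upper row shows the genes that were higher in PSPC9 and the lower row those that were lower, and in no panel do the groups overlap.

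SAA1 and SAA2 encode the acute serum amyloid A proteins, small apolipoproteins that bind high-density lipoprotein and rise steeply in plasma during inflammation. They lie in opposite orientation on chromosome 11 (GRCh38), SAA1 at chr11:18266260-18269977 on the plus strand and SAA2 at chr11:18239223-18248668 on the minus strand. Their coding sequences are near-identical, which bears on how reads are divided between them. Over 369 coding bases the transcripts SAA1-201 and SAA2-201 differed at 11 positions (97.0% identity), and 9 of these lay in the last coding exon. The coding part of that exon is shown for both in the sense direction, taken from the GENCODE transcripts, with capitals at the bases that differ.
SAA1-201, chr11:18269717-18269855, plus strand: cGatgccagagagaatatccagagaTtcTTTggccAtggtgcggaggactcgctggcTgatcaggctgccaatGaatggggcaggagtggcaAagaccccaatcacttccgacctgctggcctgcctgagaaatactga
SAA2-201, chr11:18245377-18245515, minus strand: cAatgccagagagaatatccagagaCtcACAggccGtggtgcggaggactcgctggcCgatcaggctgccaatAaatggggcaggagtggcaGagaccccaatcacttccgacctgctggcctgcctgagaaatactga
Counted from the first base of the coding sequence, with the SAA1 base first, the differences in this exon were G232A, T256C, T259A, T260C, T261A, A266G, T288C, G304A and A323G, and those before it were G43A and C230G. Kallisto assigns reads by stretches of 31 bases. Of the 488 such stretches in SAA1-201, 249 (51.0%) also occurred in SAA2-201, so a read that covers none of the differences can be placed in either gene.

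SAA1 had 18, 24 and 30 counts in PC9 replicates 1, 2 and 3 and 433, 532 and 556 in PSPC9 replicates 1, 2 and 3. In CPM these were 0.523, 0.705 and 0.891 in PC9 and 14.8, 16.9 and 16.3 in PSPC9. Every PC9 library was above the limit of detection but below 1 CPM, and every PSPC9 library was above 10 CPM. The mean was 0.706 ± 0.184 CPM (SD, n = 3) in PC9 and 16.0 ± 1.06 in PSPC9, a fitted log2 fold change of 4.50 (SE 0.138), or 22.6-fold.

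SAA2 had 28, 24 and 13 counts in PC9 and 108, 103 and 89 in PSPC9, or 0.814, 0.705 and 0.386 CPM against 3.70, 3.27 and 2.60 CPM. The groups lay apart, with a smaller distance between them than for SAA1. The mean was 0.635 ± 0.222 CPM in PC9 and 3.19 ± 0.552 in PSPC9, a log2 fold change of 2.31 (SE 0.246), or 4.97-fold.

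The share of SAA1 in the counts of both genes was higher in every PSPC9 library than in any PC9 library. SAA1 took 39.1%, 50.0% and 69.8% of the counts of SAA1 and SAA2 together in the PC9 libraries, with exact (Clopper-Pearson) 95% intervals of 25.1 to 54.6%, 35.2 to 64.8% and 53.9 to 82.8%. It took 80.0% (76.4 to 83.3%), 83.8% (80.7 to 86.6%) and 86.2% (83.3 to 88.8%) in the PSPC9 libraries. The interval of PC9 replicate 3 overlapped those of PSPC9 replicates 1 and 2. All these intervals cover counting error only and not the assignment of reads between similar transcripts. Summed over SAA1, SAA2 and the readthrough gene SAA2-SAA4, a quantity that does not depend on the division, the counts were 46, 48 and 45 in PC9 and 551, 647 and 670 in PSPC9. The sum was 1.36 ± 0.0425 CPM in PC9 and 19.7 ± 0.842 in PSPC9, a log2 ratio of 3.85. The summed level varied less among PC9 libraries than either gene alone, in which the order of the PC9 libraries was opposite for SAA1 and SAA2.

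Transcripts of SAA1 were dominated by SAA1-204 (ENST00000649195), a transcript of 547 bases whose coding region of 234 bases ends in the exon before the last, and by SAA1-201 (ENST00000356524), of 518 bases, which carries the full coding region of 369 bases. In PSPC9, SAA1-204 took 66.9%, 67.7% and 66.8% of the SAA1 counts and SAA1-201 took 27.0 ± 1.6%. In PC9 the share of SAA1-204 was 88.9%, 100% and 20.7%, with exact 95% intervals of 65.3 to 98.6%, 85.8 to 100% and 7.99 to 39.7%. The PSPC9 libraries were alike, whereas PC9 replicate 3 stood apart from replicates 1 and 2 on 29 counts. Of the 31-base stretches in SAA1-204, 87.6% also occurred in SAA1-201, leaving 64 by which the transcripts could be distinguished. For SAA2, the transcripts SAA2-201 and SAA2-202 took 38.0 ± 15.3% and 47.7 ± 13% of its counts in PC9 and 48.6 ± 8.13% and 43.8 ± 7.67% in PSPC9, with overlap between the groups.

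SAA4, the serum amyloid A gene expressed constitutively in liver (chr11:18231355-18236802, minus strand), had 1, 0 and 0 counts in PC9 and 3, 2 and 0 in PSPC9, at or below the limit of detection in every library. The readthrough gene SAA2-SAA4, whose transcripts begin in SAA2 and end in SAA4, had 0, 0 and 2 counts in PC9 and 10, 12 and 25 in PSPC9. With 2 counts in all of PC9 no fold change is given. The readthrough gene passed the expression filter through its PSPC9 counts and shares sequence with the member SAA2, so no test is reported for it. Of the 31-base stretches in the SAA2-SAA4 transcript, 33.5% also occurred in SAA2-201. Those shared with SAA4, in which the transcript ends, were not counted. The pseudogene SAA3P had 0 counts in all libraries.

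ORM1 and HP, which encode the plasma proteins orosomucoid and haptoglobin, were not detected above the limit of 3 counts. ORM1 (chr9:114323098-114326479) had 1 count in PSPC9 replicate 3 and 0 in the other libraries, and its near-identical neighbour ORM2 had 0 in all. HP (chr16:72054505-72061055) had 2, 0 and 3 counts in PC9 and 1, 3 and 0 in PSPC9, and the related gene HPR had 0 in all. TXNL4B, whose annotation spans HP and HPR on the opposite strand and which encodes a protein of the splicing machinery, had 14.6 ± 0.314 CPM in PC9 and 14.4 ± 0.887 in PSPC9 and did not pass the test (log2 fold change -0.02, adjusted p = 0.798, edgeR).

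LCN2 encodes lipocalin-2, a secreted protein that binds bacterial iron carriers and is made by epithelia and neutrophils (chr9:128149071-128153453, plus strand). Its level was 354.5, 346.7 and 329.4 CPM in PC9 replicates 1 to 3 and 188.4, 207.3 and 194.1 CPM in PSPC9. Each PSPC9 library was below each PC9 library. The mean was 344 ± 12.8 CPM in PC9 and 197 ± 9.69 in PSPC9, a log2 fold change of -0.81 (SE 0.0449), or 1.75-fold lower. The transcript LCN2-201 took 95.8 ± 0.635% of its counts in PC9 and 95.4 ± 0.125% in PSPC9.

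C3 (chr19:6677704-6730562, minus strand) stood at 75.0, 75.9 and 71.5 CPM in PC9 and at 16.4, 16.4 and 17.3 CPM in PSPC9. The lowest PC9 library was more than 4 times the highest PSPC9 library. The mean was 74.1 ± 2.30 CPM in PC9 and 16.7 ± 0.526 in PSPC9, a log2 fold change of -2.15 (SE 0.0489), or 4.44-fold lower, the largest difference among the 3 members that were lower.

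Among the members whose transcripts were described, C3 was the one in which transcript shares did not overlap between the groups. C3-211 (ENST00000599668), a transcript of 627 bases and 6 exons at the 3′ end of the gene (chr19:6677867-6680151) with no annotated coding region, had 274, 257 and 225 counts in PC9 and 0 in each PSPC9 library. It made up 10.6%, 9.95% and 9.34% of the C3 counts in PC9. In PSPC9, 3 counts, taken as the limit that a count of 0 allows, would make 0.507 to 0.628% of the C3 counts, depending on the library, and the exact 95% upper limits were 0.621 to 0.769%. These limits cover counting error only and not the assignment of reads between C3-211 and C3-201. The full-length C3-201 (5231 bases, 41 exons) took 83.4 ± 0.539% of the C3 counts in PC9 and 91.2 ± 2.63% in PSPC9, and its own level was 61.9 ± 2.04 against 15.2 ± 0.791 CPM. C3-211 shares 82.6% of its 31-base stretches with C3-201 and has 104 that C3-201 lacks.

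**Figure D2:**
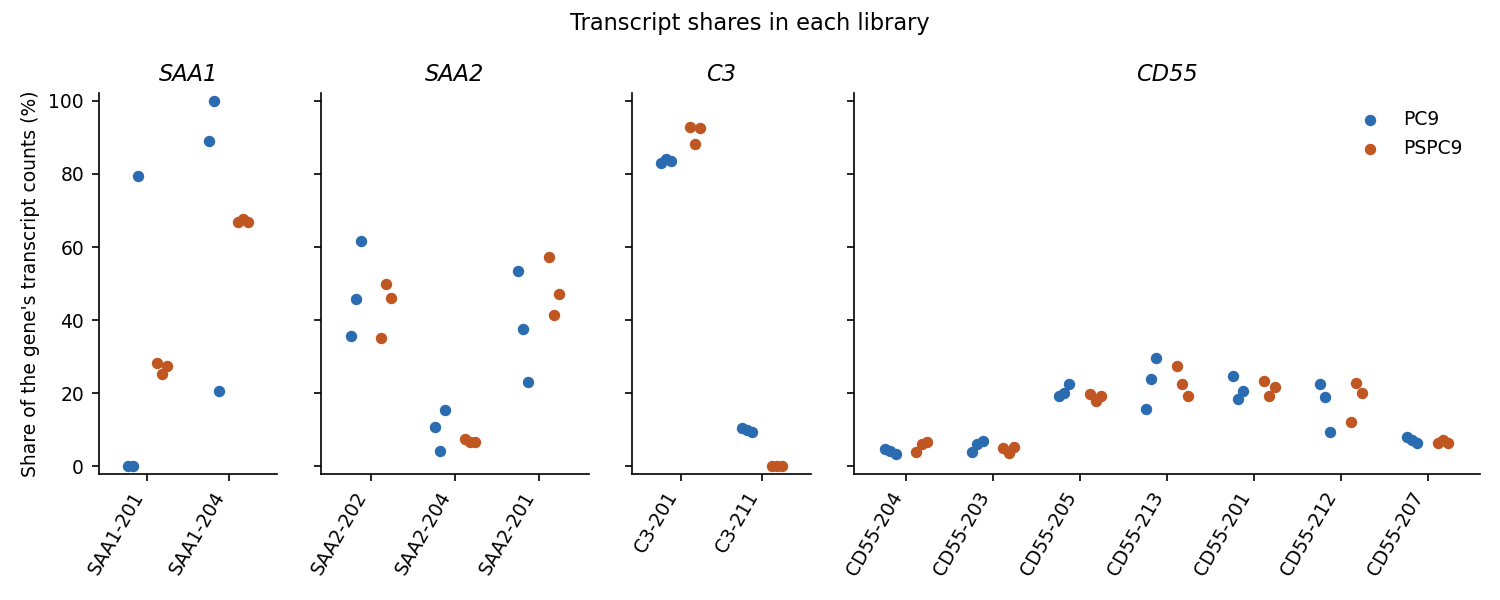
Share of a gene's transcript counts (percent) in each library, for transcripts of SAA1, SAA2, C3 and CD55 with at least 5% of the gene's counts in either group mean. C3-211 lies near 10% in the 3 PC9 libraries and at 0 in the 3 PSPC9 libraries, the shares of SAA1 transcripts scatter widely in PC9, and those of CD55 overlap between the groups.

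CFB (chr6:31945650-31952086, plus strand) had 34.2, 36.8 and 35.9 CPM in PC9 and 22.2, 24.7 and 23.0 CPM in PSPC9. The highest PSPC9 library lay below the lowest PC9 library. The mean was 35.6 ± 1.30 CPM in PC9 and 23.3 ± 1.27 in PSPC9, a log2 fold change of -0.61 (SE 0.0552), or 1.53-fold lower. The neighbouring gene C2, which encodes the classical pathway counterpart of factor B, overlaps the annotated start of CFB on the same strand. C2 had 0.872 ± 0.131 CPM in PC9 and 0.246 ± 0.0891 in PSPC9, so adding it changed little (log2 ratio of CFB and C2 together -0.63). Between 0.679% and 2.72% of the CFB counts were on transcripts that could be matched to the annotation, so the composition of CFB transcripts was not described.

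CD55 (chr1:207321519-207386804, plus strand) had 77.1, 70.2 and 72.6 CPM in PC9 and 143.9, 144.0 and 136.3 CPM in PSPC9. Each PSPC9 library was higher than each PC9 library. The mean was 73.3 ± 3.50 CPM in PC9 and 141 ± 4.43 in PSPC9, a log2 fold change of 0.95 (SE 0.0454), or 1.93-fold higher. CD55 transcripts differ in how the coding region ends, which sets whether the protein keeps the signal for its lipid anchor. Transcripts that end at the last coding base before the stop codon of CD55-204, taken as the canonical end (chromosome 1, 207359607), took 24.8 ± 1.13% of the CD55 counts in PC9 and 24.7 ± 1.30% in PSPC9. Transcripts with another end took 68.0 ± 0.587% and 68.2 ± 0.750%. Their levels were 18.2 ± 1.08 against 34.6 ± 0.855 CPM for the canonical end and 49.8 ± 2.25 against 95.6 ± 3.57 CPM for the other ends, so the CPM of both classes was higher in PSPC9 and the division between them overlapped.

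Divided by the length of the leading annotated transcript, the levels of different genes can be set side by side. In PC9 the order was LCN2 at 419 ± 15.7 CPM per kb, CD55 at 34.8 ± 1.66, CFB at 14.4 ± 0.525, C3 at 14.2 ± 0.440, SAA1 at 1.29 ± 0.336 and SAA2 at 1.1 ± 0.386. CFB and C3 did not differ beyond their spread, and at these lengths neither did SAA1 and SAA2. In PSPC9 the order was LCN2 at 240 ± 11.8 CPM per kb, CD55 at 67.0 ± 2.10, SAA1 at 29.3 ± 1.94, CFB at 9.42 ± 0.514, SAA2 at 5.54 ± 0.958 and C3 at 3.19 ± 0.101. C3 stood above SAA1 in PC9 and below SAA1 in PSPC9. The value of SAA2 uses SAA2-201 (576 bases), while SAA2-202 (1022 bases) held a like share of its counts, so the place of SAA2 beside SAA1 in PC9 and beside C3 in PSPC9 depends on the length taken. The value of CFB uses a transcript length that rests on few of its counts.

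RefSeq promoter sequence of GRCh38.p14 was matched for 5 of the 9 genes, SAA4, LCN2, CFB, ORM1 and CD55. The 250 bases before each start were searched on both strands for the NF-kappa B consensus, for the C/EBP motif TTGCNNAA and for the STAT motif TTCNNNGAA. Those of LCN2 and CFB, which were both lower in PSPC9, and of CD55, which was higher, are shown with capitals at the matches.
LCN2, chr9:128149203-128149452, plus strand: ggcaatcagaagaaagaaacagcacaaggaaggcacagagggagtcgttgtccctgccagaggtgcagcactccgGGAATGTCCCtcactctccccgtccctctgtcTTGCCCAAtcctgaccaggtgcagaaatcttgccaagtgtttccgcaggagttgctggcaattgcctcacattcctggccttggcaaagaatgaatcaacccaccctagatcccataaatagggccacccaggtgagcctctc
CFB, chr6:31945845-31946094, plus strand: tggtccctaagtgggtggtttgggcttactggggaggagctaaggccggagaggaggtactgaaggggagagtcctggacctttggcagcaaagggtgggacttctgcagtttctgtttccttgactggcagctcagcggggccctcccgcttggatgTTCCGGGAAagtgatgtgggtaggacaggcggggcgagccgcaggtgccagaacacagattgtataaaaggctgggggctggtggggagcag
CD55, chr1:207321428-207321677, plus strand: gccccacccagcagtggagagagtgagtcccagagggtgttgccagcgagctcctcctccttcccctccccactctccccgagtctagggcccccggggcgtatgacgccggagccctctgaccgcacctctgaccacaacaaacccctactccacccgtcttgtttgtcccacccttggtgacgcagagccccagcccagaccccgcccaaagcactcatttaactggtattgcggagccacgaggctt
LCN2 held the NF-kappa B consensus on the minus strand, which reads GGAATGTCCC on the plus strand, 175 to 166 bases before the start, and the C/EBP motif as TTGCCCAA, 143 to 136 bases before it. CFB held the STAT motif as TTCCGGGAA, 92 to 84 bases before the start. SAA4 held the C/EBP motif 3 times, and in CD55 and ORM1 none of these letters were found in this window. The matches did not overlap one another. Among 35116 promoter windows of the same length, 5.21% held the NF-kappa B consensus, 9.05% the C/EBP motif and 6.57% the STAT motif. A match describes the letters and not the binding of a factor.

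For each of the 6 tested members the genes with the most similar pattern were sought by the Euclidean distance between log2 CPM centred on the mean over 6 libraries, all of which share the same contrast. They were MMP24 (distance 0.490) and ALOX5AP (0.552) for SAA1, DLX2 (0.387) and EFR3B (0.494) for SAA2, TRIP10 (0.0559) and RGL3 (0.0815) for LCN2, EMP1 (0.111) and SCNN1A (0.132) for C3, PARP3 (0.0408) and SLC9A3R1 (0.0489) for CFB, and NBPF1 (0.0468) and XPOT (0.0627) for CD55. The nearest genes of SAA1 and SAA2 lay farther away than those of the other 4 members. SAA1 and SAA2 had only 13 to 30 counts in the PC9 libraries, and the part of counting noise in these distances was not tested.

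Around the members, the complement components were examined as a list of 27 genes without C3 and CFB. Of the 10 tested, 1 was called higher and 7 lower, beside 28.7% and 28.1% of all genes tested, and their median log2 fold change was -0.82 beside -0.0061 for all. C1S, a protease of the first complement component, rose from 87.6 ± 0.481 to 154 ± 0.766 CPM (log2 fold change 0.81, adjusted p = 6.84e-09, edgeR). C1R, the protease that activates C1s, fell from 50.3 ± 2.74 to 25.4 ± 0.0428 CPM (log2 fold change -0.98, adjusted p = 3.61e-08, edgeR), and the related C1RL fell from 77.1 ± 3.00 to 42.8 ± 0.731 CPM (log2 fold change -0.85, adjusted p = 3.44e-08, edgeR). The paired proteases C1R and C1S thus differed in opposite directions.

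C4A and C4B, near-identical genes for the fourth complement component, fell by 2.26 and 2.85 on the log2 scale (adjusted p = 3.02e-05 and 4.56e-05, edgeR). The call of C4A was lost when gene counts were summed from transcripts, where its log2 fold change was -2.07. That setting leaves out transcripts without a match in the annotation. Without PSPC9 replicate 2, the log2 fold change of C4B was -3.55. Reads can be divided wrongly between them. Their summed level was 8.85 ± 1.06 CPM in PC9 and 1.63 ± 0.286 in PSPC9, a log2 ratio of -2.44. C2 fell by 1.83 on the log2 scale (adjusted p = 0.000445, edgeR). The C1q chain genes, C6, C8A, C8B, C9 and MBL2 were at 0 counts in all libraries.

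Of 24 complement regulators other than CD55, 11 were tested, with 6 called higher and 3 lower, beside 28.7% and 28.1% of all genes tested. Their median log2 fold change was 0.36. Among the regulators on the cell surface, CD46, the cofactor for cleavage of C3b, fell from 271 ± 15.7 to 165 ± 7.60 CPM (log2 fold change -0.71, adjusted p = 3.31e-07, edgeR). CD59, which blocks the membrane attack complex, rose from 252 ± 9.62 to 295 ± 6.07 CPM (log2 fold change 0.23, adjusted p = 0.000309, edgeR). THBD, the endothelial anticoagulant thrombomodulin, rose from 10.2 ± 0.553 to 35 ± 1.1 CPM (log2 fold change 1.79, adjusted p = 1.09e-09, edgeR). Beside CD55, which was 1.93-fold higher, the membrane regulators thus did not share a direction.

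Of the secreted regulators, CFI, the protease that inactivates C3b, had 193, 176 and 160 counts in PC9 and 7, 0 and 6 in PSPC9 (log2 fold change -5.20, adjusted p = 1.85e-07, edgeR). CLU, the chaperone clusterin, rose from 148 ± 3.56 to 263 ± 19.3 CPM (log2 fold change 0.82, adjusted p = 1.51e-07, edgeR). C4BPB, a chain of C4b-binding protein, rose from 1.00 ± 0.14 to 5.22 ± 0.192 CPM (log2 fold change 2.38, adjusted p = 8.44e-08, edgeR). VTN, which encodes vitronectin and is named after its values were seen, had 0, 1 and 0 counts in PC9 and 64, 60 and 49 in PSPC9.

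**Figure D3:**
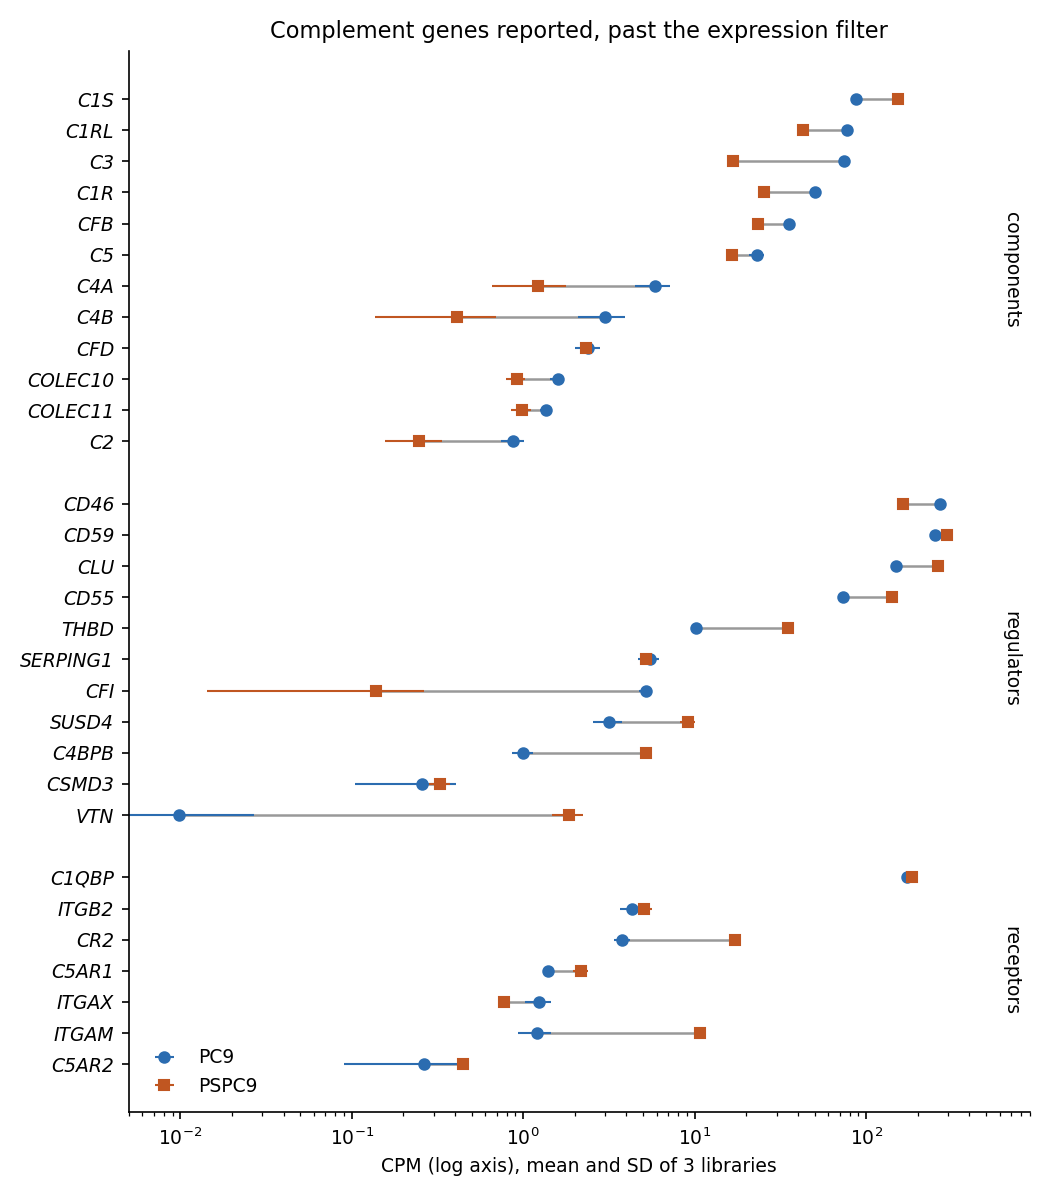
Mean CPM (log axis) with SD of 3 libraries in PC9 (circles) and PSPC9 (squares) for the complement components, regulators and receptors reported here that passed the expression filter. A line joins the groups of a gene, levels are not divided by length and compare groups rather than genes, and lower bars that would pass 0 are shortened. C3, C1R and CFI are lower in PSPC9, and C1S, CD55, THBD and ITGAM are higher.

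Of 11 complement receptors 7 were tested, with 3 called higher and 0 lower by edgeR, beside 28.7% and 28.1% of all genes tested. At an unadjusted p under 0.05, 1 was lower, and under DESeq2 0 were called lower. The median log2 fold change was 0.64. ITGAM, the alpha chain of the integrin that binds cleaved C3, rose from 1.2 ± 0.263 to 10.7 ± 0.764 CPM (log2 fold change 3.15, adjusted p = 9.56e-09, edgeR). ITGAM is also a marker of leukocytes. Its partner chain ITGB2 stood at 4.32 ± 0.641 and 5.08 ± 0.572 CPM and did not pass the test (adjusted p = 0.154, edgeR). CR2, the receptor for C3d, rose from 3.78 ± 0.386 to 17.1 ± 1.29 CPM (log2 fold change 2.17, adjusted p = 9.67e-09, edgeR). C5AR1, a receptor for C5a, had 1.40 ± 0.0664 and 2.17 ± 0.222 CPM (adjusted p = 0.00472, edgeR), a call that was lost under DESeq2 and without PC9 replicate 1, PC9 replicate 3 or PSPC9 replicate 3. The log2 fold change was 0.64, and 0.54 to 0.64 in those settings.

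Receptors and partners of the member proteins made up a list of 16 genes, of which 8 were tested. Of these, 3 were called higher and 1 lower (median log2 fold change 0.22), beside 28.7% and 28.1% of all genes tested. SCARB1, the high-density lipoprotein receptor that also takes up serum amyloid A, rose from 54.3 ± 2.40 to 105 ± 2.72 CPM (log2 fold change 0.95, adjusted p = 1.52e-08, edgeR). The toll-like receptors described for serum amyloid A moved apart. TLR2 rose from 1.19 ± 0.154 to 6.99 ± 0.675 CPM (log2 fold change 2.54, adjusted p = 4.8e-08, edgeR), and TLR4 fell from 0.646 ± 0.0514 to 0.136 ± 0.0401 CPM (log2 fold change -2.21, adjusted p = 0.000176, edgeR). The counts of TLR4 in PSPC9 were 4, 3 and 6, near the limit of 3 counts. LRP1, an endocytic receptor, rose from 82.8 ± 5.92 to 109 ± 12.6 CPM (log2 fold change 0.39, adjusted p = 0.00121, edgeR). ADGRE5, the adhesion receptor that binds CD55, had 49.8 and 47.9 CPM and did not pass the test (adjusted p = 0.341, edgeR), and SLC22A17, a receptor for lipocalin-2, had 0 counts in all libraries.

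Other acute phase proteins were a list of 30 genes, of which 8 were tested, 3 called higher and 1 lower (median log2 fold change -0.0099), beside 28.7% of all genes tested called higher and 28.1% lower. PTX3, a pentraxin made outside the liver, rose from 0.784 ± 0.0781 to 2.20 ± 0.330 CPM (log2 fold change 1.48, adjusted p = 4.94e-05, edgeR), and RBP4, which carries retinol, rose from 0.118 ± 0.0600 to 0.904 ± 0.132 CPM (log2 fold change 2.91, adjusted p = 3.77e-05, edgeR). The counts of RBP4 in PC9 were 2, 4 and 6, around the limit of 3 counts. With each library left out, its log2 fold change was 2.59 to 3.31. LRG1, a glycoprotein of the acute phase, fell from 59.6 ± 5.38 to 31.3 ± 0.375 CPM (log2 fold change -0.93, adjusted p = 3.08e-07, edgeR). CRP, FGA and FGB, acute phase genes of the liver, were at 0 counts in all libraries.

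Signals and transcription factors that induce acute phase genes were a list of 38 genes, of which 36 were tested. Of these, 15 were called higher and 12 lower (median log2 fold change 0.17), beside 28.7% and 28.1% of all genes tested. IL6, the main inducer of acute phase genes in liver, had 29, 25 and 15 counts in PC9 and 109, 130 and 143 in PSPC9 (log2 fold change 2.57, adjusted p = 6.63e-07, edgeR). IL1B had 80, 64 and 65 counts in PC9 and 12, 12 and 8 in PSPC9 (log2 fold change -2.58, adjusted p = 3.93e-06, edgeR). TNF, the tumour necrosis factor gene, had 8, 16 and 8 counts in PC9 and 24, 32 and 36 in PSPC9 (log2 fold change 1.61, adjusted p = 0.00083, edgeR). IL1A did not pass the test (log2 fold change -0.0062, adjusted p = 0.979, edgeR). All these cytokines are named after their values were seen. JAK1, a kinase of the interleukin-6 receptor complex, rose from 192 ± 5.89 to 327 ± 8.85 CPM (log2 fold change 0.77, adjusted p = 2.55e-08, edgeR), and SOCS3, the feedback inhibitor of that complex, fell from 36.2 ± 3.79 to 8.90 ± 0.384 CPM (log2 fold change -2.02, adjusted p = 6.06e-09, edgeR).

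Of the transcription factors, the NF-kappa B subunit genes NFKB2 and RELB rose, NFKB2 from 30.3 ± 1.70 to 52.6 ± 1.27 CPM (log2 fold change 0.80, adjusted p = 1.85e-07, edgeR) and RELB from 12.5 ± 1.18 to 38.1 ± 0.887 CPM (log2 fold change 1.61, adjusted p = 5.67e-09, edgeR). The rise of RELB was 0.71 and no longer passed the test when gene counts were summed from transcripts. That setting leaves out transcripts without a match in the annotation, and their part in the value of RELB was not tested. CEBPD, a C/EBP factor of the acute phase, fell from 22.2 ± 1.46 to 10.3 ± 0.851 CPM (log2 fold change -1.10, adjusted p = 3.33e-07, edgeR). CEBPB, another C/EBP factor, had 119 ± 11.4 and 113 ± 2.29 CPM and did not pass the test (adjusted p = 0.308, edgeR). STAT3 rose from 177 ± 5.53 to 235 ± 3.27 CPM (log2 fold change 0.41, adjusted p = 2.5e-06, edgeR). CEBPB and STAT3 are named after their values were seen. ELF3, an epithelial factor that responds to cytokines, fell from 144 ± 5.73 to 76.7 ± 1.43 CPM (log2 fold change -0.91, adjusted p = 1.3e-08, edgeR).

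**Figure D4:**
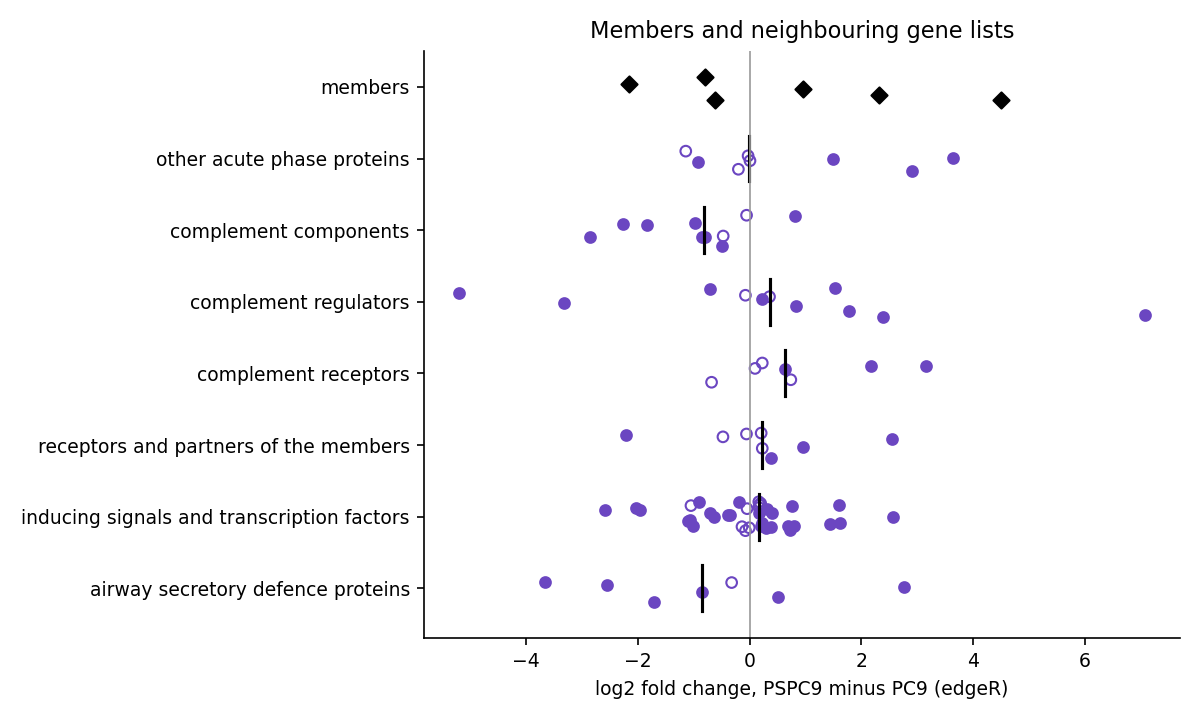
Log2 fold change of PSPC9 minus PC9 for the 6 tested members (diamonds) and the tested genes of 7 neighbour lists, with filled circles for genes called at an adjusted p under 0.01, open circles for the others and a vertical bar at each list's median. Complement components lie mostly below 0 with a median of -0.82, the members lie on both sides of 0, and the rightmost point among the regulators is VTN, whose position rests on 1 count in PC9.

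Of 12 hepatocyte markers, 5 had 0 counts in all libraries and 0 of the 2 tested passed the test (edgeR, with 0 at an unadjusted p under 0.05 and 0 under DESeq2), ALB had at most 2 counts in a library, and the summed level was 12.2 to 12.8 CPM in PC9 and 9.60 to 12.1 in PSPC9. The summed level of 12 leukocyte markers was 80.0 to 81.1 CPM in PC9 and 35.7 to 39.4 in PSPC9, with CD68 lower at 74.8 ± 0.912 against 21.1 ± 1.62 CPM, S100A9 lower, ITGAM and CSF1R higher, CD3E and MPO at 0 counts and PTPRC at 11, 11 and 12 counts in PC9 and 7, 3 and 4 in PSPC9. That of 10 fibroblast markers was 10.6 to 11.3 CPM in PC9 and 27.5 to 31.2 in PSPC9, with COL1A1 higher at 10.2 ± 0.340 against 28.3 ± 1.79 CPM, PDGFRB higher and COL3A1 at 0 counts. The summed level of 12 lung epithelial markers was 8035 to 8675 CPM in PC9 and 6292 to 6667 in PSPC9. Of the 10 tested, 8 were called lower and 2 higher, beside 28.1% and 28.7% of all genes tested. The part of these shifts in the values of the members was not tested.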

How the data were processed

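Poly-A RNA of 3 PC9 and 3 PSPC9 libraries was sequenced as paired-end reads. The authors trimmed and filtered reads with bases2fastq and FASTP and assigned them with Kallisto 0.46.1 to Ensembl 96 transcripts (GRCh38.p13). The authors deposited unnormalized estimated counts, as whole numbers, for gene symbols and for transcripts. How transcripts were summed to genes is not given in the sources used here. All columns were used, 0 being left out.

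Gene counts were rounded and analysed in R 4.3.3 with edgeR 4.0.16 (filterByExpr defaults, TMM, glmQLFit, glmQLFTest, no replicate block), with Benjamini-Hochberg adjustment over all genes tested and a limit of 0.01. This replaced the authors' Sleuth fit, which also used libraries of another laboratory that were not analysed here. Standard errors of log2 fold changes were taken as the absolute value over the root of the F statistic. P-values weigh the difference between the groups against the spread between these libraries. Libraries of a group differed by more than sampling noise. The chi-square per degree of freedom was 5.41 to 21.0 for PC9 pairs and 3.49 to 5.29 for PSPC9 pairs. The PSPC9 libraries were pools of cultures and the PC9 libraries were not, and the part of pooling in these values was not tested.

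Members and neighbour lists, which were written from general knowledge, were chosen with earlier results of these data known. Genes were named by rule: the 9 members, up to 3 called genes with the smallest p-values per list and direction, near-identical, readthrough or adjacent partners, CD46 and CD59, the 2 genes most alike in pattern, and transcripts with at least 5% of a gene's counts. Some genes that this rule selects are not reported here. Genes outside it are named beside counts at 0, as markers, as partners of named genes or as chosen after their values were seen. Coordinates and transcript structures are from GENCODE 44 (GRCh38), to which 167067 transcripts were matched. These held 95.8% of all transcript counts. The 21686 transcripts without a match were left out when gene counts were summed from transcripts, which can remove part of a gene's counts. Alternatives were DESeq2 1.42.0, other normalization, no filter, counts summed from transcripts or paralogs, a replicate block, other limits and each library left out. The sum of C4A and C4B was added after seeing the data. Figures were drawn with matplotlib 3.10.9.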

Additional observations from a re-analysis of the deposited data

How the results depend on the processing

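Across 75 alternative values of the 6 tested members none changed direction, and 72 moved by less than the spread between libraries. Those that moved were SAA1 and SAA2 when summed with each other and with SAA2-SAA4 (3.85 for the sum) and C3 when scaled by library size alone (-2.20). The value of CFB with counts summed from transcripts (-0.62) used only 1.54% of the CFB counts, so it does not check the value of CFB. Of 585 values of 49 other named genes, 578 kept their direction and their side of the limit. The exceptions were C4A and RELB with counts summed from transcripts, C5AR1 under DESeq2 and in 3 leave-outs, and TXNL4B, which changed sign to 0.019 without PSPC9 replicate 3 (range -0.066 to 0.019 over the leave-outs). Requiring in addition a fold change above 2 left 826 genes higher and 865 lower, 11.6% of all genes tested. It left 3 of 10 complement components, 6 of 11 regulators and 2 of 7 complement receptors called. Also left were 2 of 8 receptors and partners and 10 of 36 inducing signals and transcription factors. Of other acute phase proteins 3 of 8 remained, and of airway secretory defence proteins 4 of 7. With each library left out, 3542 to 4253 genes were higher and 3512 to 4154 lower. DESeq2 called 7734 genes, 46.6% of those it tested. With a replicate block, 4382 genes were higher and 4289 lower. Deviations of same-numbered libraries from their group means correlated at 0.124, 0.0236 and 0.0215, the first being the highest of all pairs. PC9 replicate 2 correlated best with PSPC9 replicate 3 (0.0971). With 3 libraries per group, these values cannot decide whether same-numbered libraries were paired, and no pairing was assumed. Depth limits SAA4, ORM1 and HP, which were at or under 3 counts, and the shares of SAA1 transcripts in PC9, which rest on 18 to 29 counts. Kallisto's uncertainty in dividing reads between SAA1 and SAA2 enters no value.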

Other observations

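Proteins of airway secretory defence were a list of 20 genes that share a site of production with LCN2, and 7 were tested. Of these, 2 were called higher and 4 lower, beside 28.7% and 28.1% of all genes tested. Their median log2 fold change was -0.84, beside -0.0061 for all genes tested. PI3 and SLPI, inhibitors of neutrophil elastase, rose, PI3 from 0.969 ± 0.118 to 6.56 ± 0.516 CPM (log2 fold change 2.76, adjusted p = 2.73e-08, edgeR) and SLPI from 23.2 ± 0.587 to 33.1 ± 0.564 CPM (log2 fold change 0.51, adjusted p = 3.28e-06, edgeR). WFDC2, a secreted protein of the same structural family, fell from 68.1 ± 5.57 to 20.8 ± 1.59 CPM (log2 fold change -1.71, adjusted p = 6.81e-09, edgeR). DEFB1, an epithelial defensin, fell from 1.24 ± 0.0860 to 0.092 ± 0.0747 CPM (log2 fold change -3.66, adjusted p = 8.91e-06, edgeR). Its PSPC9 counts were 2, 1 and 6, around the limit of 3 counts, and the log2 fold change was -4.55 without PSPC9 replicate 3. ZG16B, a secreted lectin-like protein, fell from 10.2 ± 1.52 to 5.65 ± 0.140 CPM (log2 fold change -0.84, adjusted p = 5.98e-05, edgeR). The secretory products BPIFA1, SCGB1A1 and TFF3 had 0 counts in all libraries.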
